A study of Homo sapiens with 4 samples.

Results

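The miR-23/27/24 miRNAs are made from 2 related clusters of 3 hairpins each, and 4 of their mature products were followed here by name: hsa-miR-23a-5p, hsa-miR-27a-5p, hsa-miR-27b-5p and hsa-miR-24-3p, written below without the species prefix where they recur. They are 4 of 2366 human miRNAs with a row in each count table, and all 4 passed the filter on low counts that left 464 miRNAs for testing. Small RNAs were sequenced from K562, an established human leukaemia line with erythroid features, carrying dCas9-KRAB, an inactive Cas9 fused to a repressor of transcription (CRISPR interference). ERH knockdown cells received 0.05 µg/ml doxycycline for 5 days to induce repression of ERH, and control cells of the same polyclonal line received none. Each of 2 guide RNAs against ERH had its own polyclonal line, which gave 2 knockdown and 2 control libraries. Each library comes from a single culture of its line, and an effect of doxycycline itself and one of ERH loss cannot be told apart here. ERH mRNA was not measured in them.

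Microprocessor, the complex of Drosha and DGCR8, cuts miRNA hairpins out of primary transcripts, Dicer then removes the loop, and one strand of the resulting duplex is loaded into Argonaute. The strand from the left side of the hairpin is the 5p arm and the strand from the right side is the 3p arm. ERH is a small conserved protein that binds DGCR8, and the study asks how it helps hairpins that lie beside others in one transcript. In the miR-23/27/24 clusters the 3p arms are known as the abundant guide strands: miR-24-3p represses the cell cycle genes MYC and E2F2, and miR-27-3p represses RUNX1. The 5p arms of these hairpins are known as the strands that are mostly discarded, and each is released from 1 of the 6 hairpins.

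The sequences are shown because each 5p arm belongs to 1 hairpin and so reports on 1 locus, whereas miR-24-3p has the same letters in both clusters and its reads cannot be split between them. Mature RNAs are printed 5′ to 3′ from RefSeq (GRCh38.p14), with the seed, bases 2 to 8, in capitals.
miR-23a-5p: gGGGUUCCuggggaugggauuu
miR-23b-5p: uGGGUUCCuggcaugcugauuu
miR-27a-5p: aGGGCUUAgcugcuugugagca
miR-27b-5p: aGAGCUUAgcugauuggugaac
miR-24-2-5p: uGCCUACUgagcugaaacacag
miR-24-1-5p: uGCCUACUgagcugauaucagu
miR-24-3p: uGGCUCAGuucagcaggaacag
miR-23a-5p and miR-23b-5p share a seed, and 15 of their 22 positions are identical. miR-27a-5p and miR-27b-5p have different seeds and share 14 of 22 positions. miR-24-1-5p and miR-24-2-5p share a seed and their first 15 bases. How the authors assigned reads that end before such copies part is not given in the sources used here, so counts of miR-24-1-5p and miR-24-2-5p are uncertain in that respect. Of the other miRNAs with a row, 0 share the seed of miR-24-3p, miR-27a-5p or miR-27b-5p.

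The miR-23a27a24-2 cluster spans 373 bases at chr19:13836287-13836659 on the minus strand (GRCh38). All 3 hairpins lie within an exon of AC020916.1, which GENCODE 29 annotates as an antisense RNA gene. The miR-23b27b24-1 cluster spans 881 bases at chr9:95085208-95086088 on the plus strand, inside the protein-coding gene C9orf3. MIR23B and MIR27B lie in an intron there, and MIR24-1 lies within an annotated C9orf3 exon and opposite the hairpin MIR3074 on the other strand. The gaps between neighbouring hairpins were 69 and 80 bases on chromosome 19 and 140 and 479 bases on chromosome 9. The 6 hairpins are printed below from RefSeq with the counted arms in capitals, to show which strand of each hairpin the results rest on.
MIR23A: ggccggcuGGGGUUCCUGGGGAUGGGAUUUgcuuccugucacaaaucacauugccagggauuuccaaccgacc
MIR27A: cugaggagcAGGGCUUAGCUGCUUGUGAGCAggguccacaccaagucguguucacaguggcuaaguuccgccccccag
MIR24-2: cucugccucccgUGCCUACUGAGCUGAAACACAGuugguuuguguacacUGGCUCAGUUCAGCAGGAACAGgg
MIR23B: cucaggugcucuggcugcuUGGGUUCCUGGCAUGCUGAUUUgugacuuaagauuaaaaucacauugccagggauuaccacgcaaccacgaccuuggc
MIR27B: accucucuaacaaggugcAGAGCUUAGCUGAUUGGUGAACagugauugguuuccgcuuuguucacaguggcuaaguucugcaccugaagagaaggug
MIR24-1: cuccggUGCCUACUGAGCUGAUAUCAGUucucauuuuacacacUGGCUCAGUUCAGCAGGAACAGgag
Both arms of the miR-24 hairpins were counted, but only the 5p arm of the miR-23a, miR-23b, miR-27a and miR-27b hairpins. The 3p arms of those 4 hairpins were not analysed here.

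The knockdown libraries held 2227374 (guide RNA 1) and 2393565 (guide RNA 2) miRNA reads, and the control libraries held 1430434 and 2476700. The 4 erythroid miRNAs miR-451a, miR-144-3p, miR-144-5p and miR-486-5p summed to 44467 and 44608 CPM (read counts over the TMM-scaled library size) in knockdown cells and to 45211 and 46710 CPM in control cells. Single members moved apart within this sum: miR-451a had 20370 and 21087 CPM in knockdown cells against 28639 and 29336 CPM in control cells and fell with TMM factors (edgeR, adjusted p = 8.6e-07), whereas both miR-144 arms were called higher, at log2 fold changes of 0.74 (miR-144-3p) and 0.88 (miR-144-5p). Of 10 miRNAs of other cell types, 7 had a row, and they summed to 1058 CPM in each knockdown library against 856 and 908 CPM in the control libraries. Nearly all of this was miR-145-5p, a mesenchymal miRNA at 792 to 980 CPM over the 4 libraries, and miR-200c-3p, an epithelial one at 54.7 to 73.7 CPM. Both were called higher after knockdown, by 0.26 for miR-145-5p (edgeR, adjusted p = 0.0041) and by 0.35 for miR-200c-3p (adjusted p = 0.044) on the log2 scale. The liver, neuron, muscle and lymphocyte miRNAs miR-122-5p, miR-124-3p, miR-1-3p and miR-150-5p and the mesenchymal miR-143-3p lay between 0 and 5.84 CPM. The part of other cells in the results was not tested.

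After ERH knockdown, the 5p arms of miR-23a, miR-27a and miR-27b fell by 0.94 to 1.05 on the log2 scale relative to the bulk of miRNAs, while miR-24-3p, which is far more abundant, stood at -0.11 and did not pass. Of the 4 miRNAs, 3 fell and 0 rose (edgeR quasi-likelihood test, adjusted p under 0.05), where 25.2% of all 464 tested miRNAs fell, 25.6% rose and 50.9% changed in either direction. The median log2 fold change over all tested miRNAs was 0.06. The counts behind these calls are small for the 5p arms, and their size depends on the scaling between libraries, as given with the plot of scalings.

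hsa-miR-23a-5p, the discarded strand of the first hairpin of the chromosome 19 cluster, had 92 and 121 reads in knockdown cells and 98 and 176 reads in control cells. Scaled to library size with TMM factors, these were 35.0 and 44.2 CPM in knockdown cells against 77.7 and 84.9 CPM in control cells. Both knockdown libraries lay below both control libraries, and the gap between groups was far wider than the gap within either. The means were 39.6 ± 6.5 CPM in knockdown cells and 81.3 ± 5.1 CPM in control cells (SD, n = 2 each). miR-23a-5p fell by 1.05 ± 0.15 on the log2 scale (SE; edgeR, adjusted p = 4.0e-05) and ranked 16th lowest of the 464 tested miRNAs.

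hsa-miR-27a-5p comes from the hairpin that follows 69 bases downstream in the same transcript. It had 101 and 123 reads in knockdown cells and 114 and 159 reads in control cells, or 38.4 and 44.9 CPM in knockdown cells against 90.4 and 76.7 CPM in control cells. With TMM factors the groups again did not overlap, and the control libraries differed from each other more than for miR-23a-5p. miR-27a-5p fell by 0.98 ± 0.15 on the log2 scale (SE; edgeR, adjusted p = 6.6e-05) and ranked 21st lowest.

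hsa-miR-27b-5p, the counterpart from the chromosome 9 cluster, was much scarcer, with 16 and 15 reads in knockdown cells and 14 and 23 reads in control cells. Its levels were 6.08 and 5.48 CPM in knockdown cells and 11.1 CPM in each control library. Both knockdown libraries lay below both control libraries, on counts this small. miR-27b-5p fell by 0.94 ± 0.33 on the log2 scale (SE; edgeR, adjusted p = 0.026). This call was lost with DESeq2 (-0.99, adjusted p = 0.17) and when any 1 of the 4 libraries was left out (-1.02 to -0.87, adjusted p = 0.078 to 0.20). It rests on at most 23 reads in a library.

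hsa-miR-24-3p, the guide strand of both miR-24 hairpins, had 13189 and 14315 reads in knockdown cells and 6926 and 11468 reads in control cells. Its levels were 5011 and 5226 CPM in knockdown cells and 5493 and 5533 CPM in control cells, and it was the 31st or 32nd most abundant miRNA in every library. The knockdown libraries lay just below the control libraries. The log2 fold change was -0.11 ± 0.05 (SE; edgeR, adjusted p = 0.093), which did not pass. With the RLE factors of edgeR it was -0.16 and passed (adjusted p = 0.018).

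All 4 miRNAs are 22 bases long, so their CPM need no scaling for length, although how well each sequence ligates was not measured. miR-24-3p was the most abundant of them in every library and miR-27b-5p the least. miR-23a-5p and miR-27a-5p, which lie between, were not separated: miR-27a-5p had more reads in 3 of the 4 libraries and fewer in the control library of guide RNA 2.

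**Figure D1:**
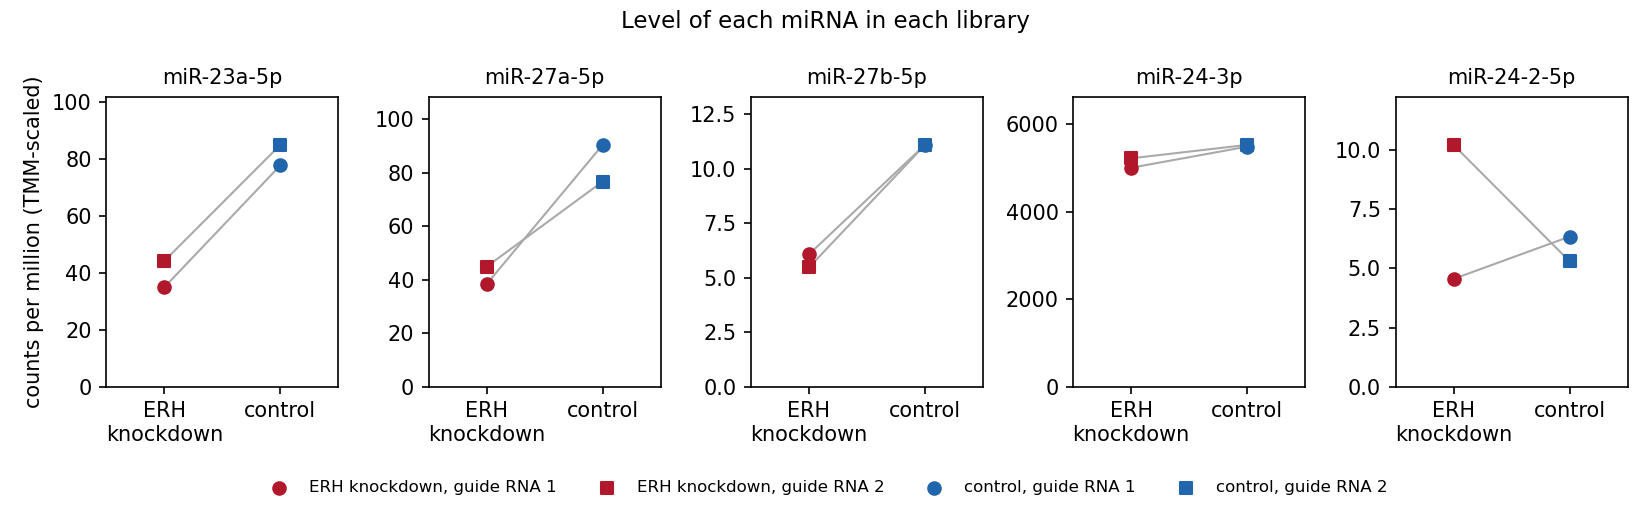
CPM (TMM-scaled, linear axes from 0) of the 4 miRNAs and of miR-24-2-5p in each library, ERH knockdown on the left and control on the right of each panel. Circles are guide RNA 1, squares are guide RNA 2, and grey lines join the libraries of one guide RNA. For each of the 3 falling 5p arms, and for miR-24-3p, both knockdown libraries lie below both control libraries. The knockdown libraries of miR-24-2-5p lie on either side of its control libraries.

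**Figure D2:**
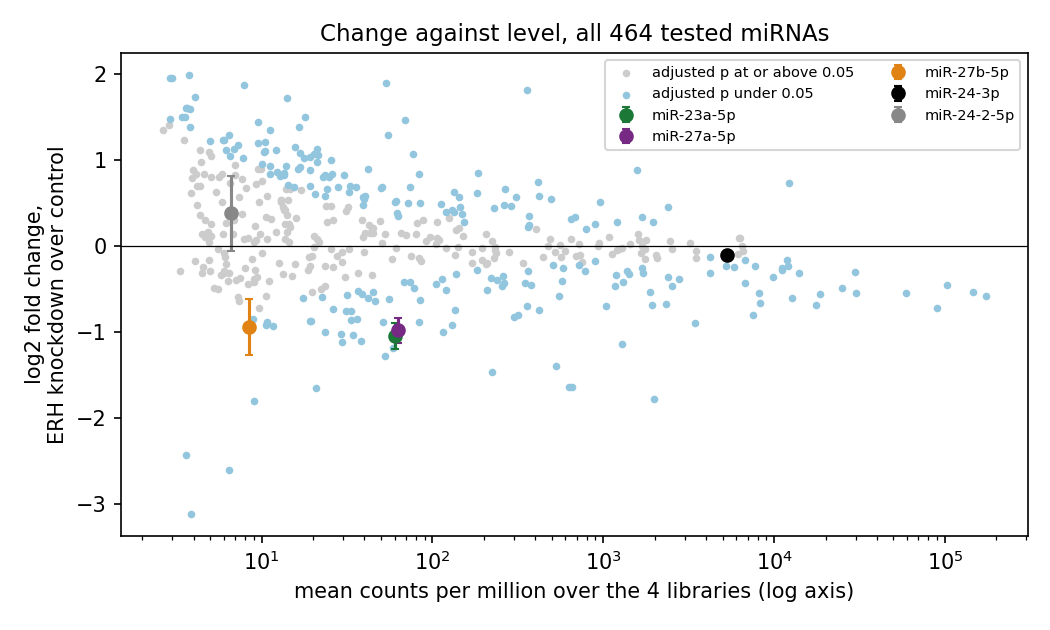
Log2 fold change of ERH knockdown over control (y axis) against mean CPM over the 4 libraries (x axis, log scale) for the 464 tested miRNAs, with the miR-23/27/24 miRNAs as larger points with their SE. miR-23a-5p and miR-27a-5p lie at -1.05 and -0.98, and miR-24-3p lies near 0 at a far higher level.

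The value of each of the 4 miRNAs depended on how the libraries were scaled, and scaling moved all miRNAs together. The median of all tested miRNAs lay 0.44 higher with library size alone than with TMM factors, and scaling to the sum of both spike-ins moved it up by 0.68. With library size, miR-24-3p was at 0.33 ± 0.06 and was called higher (edgeR, adjusted p = 1.1e-05), whereas miR-23a-5p was at -0.60 ± 0.16 (adjusted p = 9.5e-04) and miR-27a-5p at -0.54 ± 0.16 (adjusted p = 0.0027), both still called. With library size 67.7% of the tested miRNAs were called, 58.8% higher and 8.84% lower. With the spike-ins 41.8% were called, 40.1% higher and 1.72% lower, and 0 of the 4 miRNAs passed in edgeR. Their spike-in values were -0.35 ± 0.35 for miR-23a-5p, -0.29 ± 0.35 for miR-27a-5p, -0.28 ± 0.47 for miR-27b-5p and 0.59 ± 0.39 for miR-24-3p (SE). With the fly spike-in alone the 3 arms were at -0.051, -0.00063 and -0.018, each with an SE of 0.50 or more, so they had no direction there. At an unadjusted p under 0.05 the count with the spike-ins is likewise 0 of 4. Per 1000 spike-in reads there were 223 and 299 reads of miR-24-3p in knockdown cells and 150 and 197 in control cells, so knockdown libraries were higher within each guide RNA on this scale. For miR-23a-5p the same scale gave 1.55 and 2.53 in knockdown cells against 2.12 and 3.03 in control cells, lower within each guide RNA but overlapping between them. The values for miR-27a-5p were 1.71 and 2.57 in knockdown cells against 2.47 and 2.74 in control cells. Those for miR-27b-5p were 0.27 and 0.31 in knockdown cells against 0.30 and 0.40 in control cells. Both arms were likewise lower within each guide RNA but overlapped between them.

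**Figure D3:**
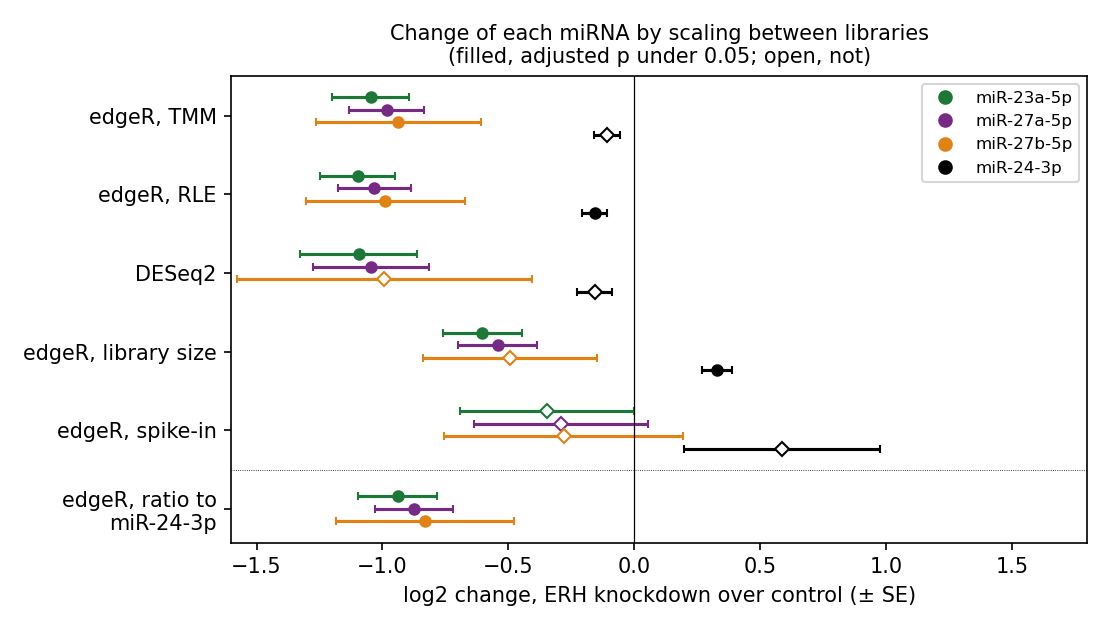
Log2 change of ERH knockdown over control with its SE (x axis) for the 4 miRNAs under 5 scalings and tools, and below the dotted line for the 3 ratios to miR-24-3p. Filled points have an adjusted p under 0.05; all points move to the right with library size and spike-ins, while the distance between miR-24-3p and the 5p arms stays about the same.

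A ratio of counts within a library needs no scaling, and by this measure the 5p arms and miR-24-3p parted under ERH knockdown. For miR-23a-5p there were 6.98 and 8.45 reads per 1000 miR-24-3p reads in knockdown cells, against 14.1 and 15.3 in control cells. The means were 7.71 ± 1.04 in knockdown cells and 14.7 ± 0.8 in control cells (SD, n = 2 each), 1.91-fold lower in knockdown cells. For miR-27a-5p the ratio was 7.66 and 8.59 in knockdown cells and 16.5 and 13.9 in control cells, 1.87-fold lower in knockdown cells. For miR-27b-5p it was 1.21 and 1.05 in knockdown cells and 2.02 and 2.01 in control cells, 1.78-fold lower in knockdown cells. For all 3 arms the groups did not overlap. The gap between the group means was 6.73 times the larger SD for miR-23a-5p and 3.83 times for miR-27a-5p. Such a multiple is not informative for miR-27b-5p, whose 14 to 23 reads per library carry a large counting error. With 2 libraries per group an SD is uncertain, and how many of all tested miRNAs separate in this way was not counted. Across 463 tested miRNAs, 55.5% had a changed ratio to miR-24-3p after knockdown at an adjusted p under 0.05, 21.2% a lower and 34.3% a higher one (edgeR with the miR-24-3p count as the offset).

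All 3 arms were among those with a lower ratio to miR-24-3p. In this fit the log2 ratio changed by -0.94 ± 0.16 for miR-23a-5p (SE; edgeR, adjusted p = 7.3e-08) and by -0.88 ± 0.15 for miR-27a-5p (adjusted p = 4.5e-07). Both held in limma on log2 ratios, with either filter, with guide RNA as a block and without any 1 library (-1.09 to -0.81 for miR-23a-5p and -1.01 to -0.77 for miR-27a-5p when a library was left out). For miR-27b-5p the change was -0.83 ± 0.35 (adjusted p = 0.037), and the call was lost when guide RNA was a block (-0.84; adjusted p = 0.060), without a filter (adjusted p = 0.10) and without any 1 library (-0.93 to -0.72). An exact permutation test of 2 libraries against 2 gave a two-sided p of 0.333 for each arm, the smallest it can give. The miR-24-3p count is common to all 3 ratios, so its own error moves them together.

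**Figure D4:**
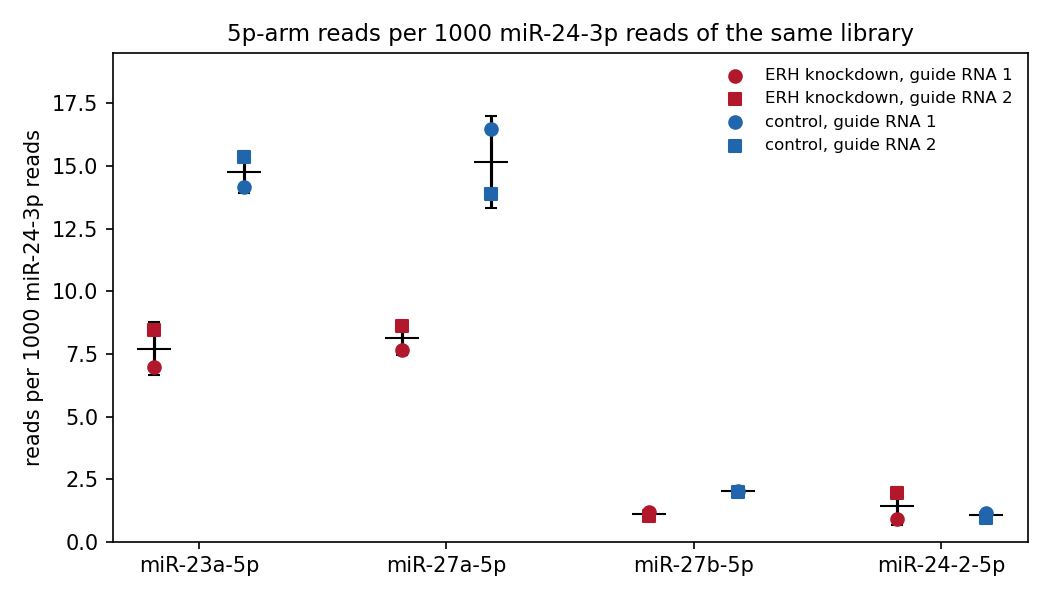
Reads of each 5p arm per 1000 miR-24-3p reads of the same library (y axis, from 0), with ERH knockdown to the left of control for each miRNA. Points are single libraries (circles guide RNA 1, squares guide RNA 2), and black bars are the mean and SD of 2 libraries; miR-23a-5p averaged 7.71 in knockdown cells and 14.7 in control cells, whereas miR-24-2-5p overlapped.

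Within each guide RNA there is 1 knockdown and 1 control library, so the intervals here cover counting error only and give no replicate error. The odds ratio of miR-23a-5p to miR-24-3p reads, knockdown over control, was 0.493 with guide RNA 1 (95% exact interval 0.366 to 0.663) and 0.551 with guide RNA 2 (0.433 to 0.699). For miR-27a-5p it was 0.465 (0.352 to 0.615) with guide RNA 1 and 0.620 (0.485 to 0.790) with guide RNA 2. All 4 of these intervals lay below 1. For miR-27b-5p it was 0.600 (0.274 to 1.33) with guide RNA 1 and 0.522 (0.253 to 1.05) with guide RNA 2, so neither library pair alone resolved the difference at this depth.

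Differences among the 3 falling 5p arms were not resolved. The count of miR-27a-5p per count of miR-23a-5p, whose hairpins share a transcript, was 1.10 and 1.02 in knockdown cells and 1.16 and 0.90 in control cells. The groups overlapped, and the mean ratio was 1.06 ± 0.06 in knockdown cells and 1.03 ± 0.18 in control cells (SD, n = 2 each). Within a guide RNA, the odds ratio of the pair was 0.944 (95% exact interval 0.627 to 1.42) and 1.12 (0.798 to 1.59), so a difference between them inside these bounds was not detectable at this depth. The count of miR-27b-5p per count of miR-27a-5p, which sets the chromosome 9 hairpin against its chromosome 19 counterpart, was 0.158 and 0.122 in knockdown cells and 0.123 and 0.145 in control cells, also overlapping. Its counting intervals were wide, at 0.558 to 3.01 with guide RNA 1 and 0.392 to 1.77 with guide RNA 2.

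The remaining mature miRNAs of these hairpins that have a row were scarce. miR-24-2-5p is the 5p arm of the last hairpin of the chromosome 19 cluster, the hairpin that follows MIR27A after 80 bases. It had 12 and 28 reads in knockdown cells and 8 and 11 reads in control cells, or 4.56 and 10.2 CPM in knockdown cells against 6.35 and 5.31 CPM in control cells. The knockdown libraries lay on either side of the control libraries, and the log2 fold change was 0.38 ± 0.44 (SE; edgeR, adjusted p = 0.49). Its ratio to miR-24-3p changed by 0.49 ± 0.40 on the log2 scale (adjusted p = 0.30), and without knockdown replicate 2 this was -0.18. miR-24-2-5p made up 5.85% (95% exact interval 3.06% to 10.0%) and 10.3% (6.95% to 14.5%) of the 5p-arm reads of the chromosome 19 cluster in knockdown cells, against 3.64% (1.58% to 7.04%) and 3.18% (1.60% to 5.62%) in control cells. Both knockdown shares lay above both control shares, but with guide RNA 1 the intervals overlapped. Most of these reads are miR-23a-5p and miR-27a-5p, which fell, so the share can rise without a change in miR-24-2-5p. The same limit applies to the ratio of miR-23a-5p to miR-24-2-5p. The count of miR-23a-5p per count of miR-24-2-5p was 7.67 and 4.32 in knockdown cells and 12.3 and 16 in control cells (exact permutation test, two-sided p = 0.333, the smallest possible), with odds ratios of 0.627 (0.212 to 1.76) within guide RNA 1 and 0.271 (0.117 to 0.587) within guide RNA 2.

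miR-24-1-5p, miR-23b-5p and miR-23c did not pass the filter. miR-24-1-5p had 8 and 8 reads in knockdown cells and 6 and 8 in control cells. miR-23b-5p had 2 and 4 reads in knockdown cells and 5 and 4 in control cells, and miR-23c, a relative of miR-23 on chromosome X, had 1 and 3 in knockdown cells and 1 and 4 in control cells. A count of 3 corresponds to 1.10 to 2.38 CPM in these libraries, so most of these values are at or near the limit of detection. Together, the 5p arms of the chromosome 19 cluster had 205 and 272 reads in knockdown cells and 220 and 346 in control cells, and those of the chromosome 9 cluster had 26 and 27 in knockdown cells and 25 and 35 in control cells. The chromosome 19 share of these reads was 88.7% and 91.0% in knockdown cells and 89.8% and 90.8% in control cells, with overlapping groups.

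MIR24-2 was the only hairpin of the 6 with both arms tested, so for the other hairpins a difference between arms and one between hairpins cannot be told apart. For context, 104 pairs of a 5p and a 3p miRNA from one hairpin were tested in all, and the less abundant arms of these were listed. Of these 104 arms, 17 rose and 36 fell, with a median log2 fold change of -0.19, against 119 rises and 117 falls and a median of 0.06 over all 464 tested miRNAs. Of 102 more abundant arms of the same hairpins, 21 rose and 36 fell, with a median of -0.03, so the number that fell was the same in both lists. The less abundant arm had the lower log2 fold change in 60 of 104 pairs, and the median difference between less and more abundant arm was -0.07. miR-24-2-5p was counted in this list, whereas miR-23a-5p, miR-27a-5p and miR-27b-5p could not be, since their 3p partners were not analysed here. The log2 fold changes of those 3 lay below the lower quartile of the listed arms, which was -0.51.

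**Figure D5:**
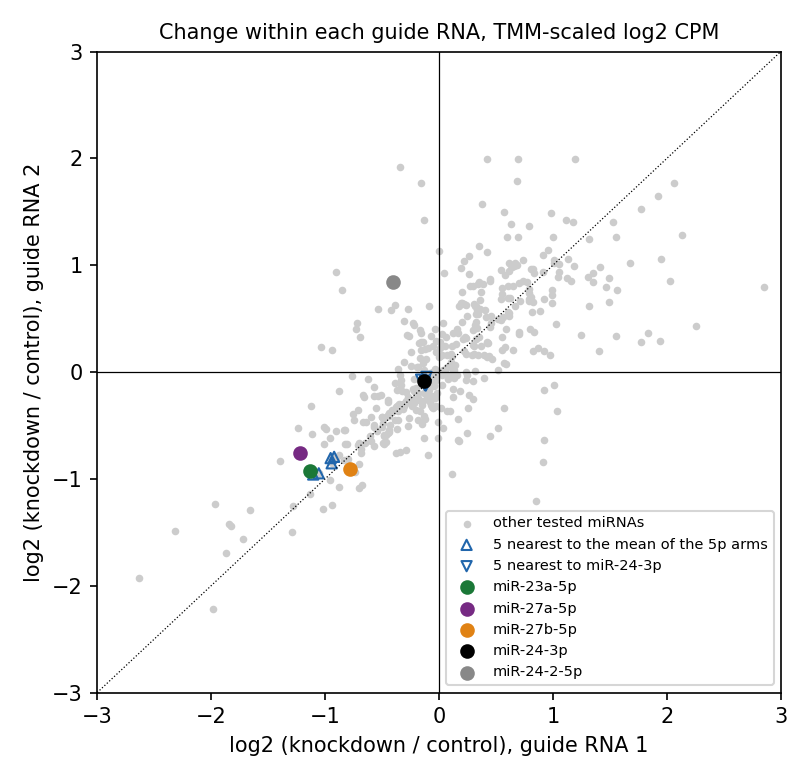
Log2 ratio of knockdown to control within guide RNA 1 (x axis) and guide RNA 2 (y axis), from TMM-scaled log2 CPM with a prior count of 2, for the 464 tested miRNAs. The dotted line marks equal change; the 3 falling 5p arms lie in the lower left, miR-24-3p near the origin, and miR-24-2-5p in the upper left, at -0.41 and 0.84.

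On the log2 scale with TMM factors and no prior count, miR-23a-5p changed by -1.15 with guide RNA 1 (95% exact interval for counting error -1.58 to -0.73) and by -0.94 with guide RNA 2 (-1.29 to -0.60). miR-27a-5p changed by -1.24 (-1.64 to -0.84) and -0.77 (-1.12 to -0.42), and miR-27b-5p by -0.87 (-2.0 to 0.28) and -1.02 (-2.06 to -0.02). miR-24-3p changed by -0.13 (-0.17 to -0.09) and -0.08 (-0.12 to -0.05). The sign for miR-24-3p depended on the scaling: it changed by 0.57 and 0.60 with the spike-ins and by 0.29 and 0.37 with library size. The share of all tested miRNAs with the same sign in both guide RNAs was not counted. The calls above come from these same libraries.

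The tested miRNAs whose within-guide changes lay nearest to the mean of the 3 falling 5p arms, by Euclidean distance over the 2 guide RNAs, were miR-26a-2-3p, miR-425-5p, miR-424-3p, miR-1908-3p and miR-191-3p, at distances of 0.08 to 0.14. Their log2 fold changes ran from -1.04 for miR-26a-2-3p to -0.88 for miR-191-3p, and their mean control levels from 39.8 CPM for miR-1908-3p to 4492 CPM for miR-425-5p. miR-425-5p and miR-191-3p come from neighbouring hairpins of one cluster. The other arms of these 2 hairpins fell less, with log2 fold changes of -0.41 for miR-425-3p and -0.35 for miR-191-5p. Nearest to miR-24-3p were miR-362-3p, miR-642a-5p, miR-219a-5p, let-7e-5p and miR-3944-5p, at distances of 0.01 to 0.05. Such likeness over 4 libraries is a description of direction and size only.

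The predicted folds of the 6 hairpins ranged widely, and their order depended on whether length was taken into account. Minimum free energies came from RNAfold on the RefSeq hairpins printed above. On chromosome 19 they were -33.3 kcal/mol for MIR23A, -37.8 for MIR27A and -26.0 for MIR24-2. On chromosome 9 they were -36.0 kcal/mol for MIR23B, -49.4 for MIR27B and -26.3 for MIR24-1. The median of 1562 human hairpins was -36.35 kcal/mol, and 83.2% of them had a lower energy than MIR24-2, against 15.9% for MIR27B. Hairpin lengths in RefSeq vary with how much flank was annotated (68 to 97 bases here), so energies were also compared per base. Per base, 80.3% of hairpins had a lower energy than MIR24-2, 76.5% than MIR23B, 72.1% than MIR24-1, 48.8% than MIR23A, 39.4% than MIR27A and 32.6% than MIR27B. Within the annotated arms, 11 bases were unpaired in MIR24-2 and 8 in MIR24-1, against 5 in MIR23A, 5 in MIR23B, 3 in MIR27A and 2 in MIR27B, where the median of 739 hairpins with both arms annotated was 7. The letters UGU, which in the apical loop are known as a Microprocessor recognition motif, were found on the transcribed strand between the arms, with 2 bases of each arm included, in MIR23A, MIR27A, MIR24-2, MIR23B and MIR27B but not in MIR24-1, and in 41.1% of those 739 hairpins. Of these hairpins, UGU lay wholly between the annotated arms only in MIR23A and MIR24-2. In MIR27A, MIR23B and MIR27B it took in a base of an arm. With 6 hairpins from related loci these features are a description and were not tested against the change in counts.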

How the data were processed

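Small RNA was gel-purified and sequenced, per the labels, and the deposited values are raw read counts, 1 whole number per mature miRNA and library. The aligner, annotation release and genome build behind them are not stated in the labels or the tables. Of 12 mature names of the miR-23, miR-27 and miR-24 hairpins, 8 had a row. The 2 spike-in rows were kept out of library sizes.

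Counts were filtered with filterByExpr (minimum count 10, minimum total 15, keeping 99.9% of reads), and knockdown was compared with control by quasi-likelihood in edgeR 4.0.16 (R 4.3.3) with TMM factors, no block and Benjamini-Hochberg adjustment over all 464 miRNAs. Ratios to miR-24-3p used its count as the offset over the other 463. Both fits were also run on simulated counts with rises and falls of equal size and likelihood. Such counts cannot show whether the TMM factors suit these libraries. The replicate number is a guide RNA with its own polyclonal line, which pairs the libraries by design, although deviations from the group means correlated at -0.11 within a line. Counting noise alone did not cover the difference between the libraries of a group (chi-square over its degrees of freedom, 4.72 in knockdown and 10.7 in control). Each library was treated as a sample. The excess does not by itself show that they are independent, since the libraries of a group also differ in guide RNA and line. Each p-value reflects only the spread among these 4 libraries, and the fits share part of that spread across miRNAs. Intervals are computed from read counts and cover counting error only. No molecular identifiers are named, so copies of one molecule may be counted as separate reads.

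Named miRNAs are the 4 followed, the other rows of these hairpins, and the 5 nearest to the mean of the 5p arms and to miR-24-3p. The members and lists were chosen with earlier results of these data known. Alternatives were a block, DESeq2 1.42.0, limma 3.58.1, RLE, library size, spike-ins, other filters (none, or a mean CPM of 10 or more) and leaving out each library, and, chosen after seeing the data, each spike-in alone and a crossed pairing. Folds came from RNAfold 2.7.2, plots from matplotlib 3.10.9 and exact intervals from scipy 1.17.1.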

Additional observations from a re-analysis of the deposited data

Results flagged for a closer look

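miR-24-2-5p went opposite ways with the guide RNAs: its log2 ratio of knockdown to control was -0.48 with guide RNA 1 and 0.95 with guide RNA 2 (TMM-scaled, no prior count). These rest on 12 knockdown and 8 control reads with guide RNA 1 and on 28 knockdown and 11 control reads with guide RNA 2, and both 95% exact counting intervals include 0 (-1.89 to 1.02 and -0.11 to 2.10). The opposite signs depend on the scaling: scaled to the spike-ins, guide RNA 1 gave 0.23 and guide RNA 2 gave 1.63, and scaled to library size they gave -0.05 and 1.40. The difference between the guide RNAs was not tested.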

How the results depend on the processing

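The falls of miR-23a-5p and miR-27a-5p kept their call under 10 of 13 alternatives (values when a library was left out, -1.23 to -0.90 and -1.14 to -0.89) and lost it with the spike-ins together (-0.35 and -0.29), the frog spike-in alone (-0.38 and -0.33) and the fly spike-in alone (-0.051 and -0.00063). miR-27b-5p, which the filter of at least 10 CPM removes, lost its call with DESeq2 (-0.99), library size (-0.49), the spike-ins (-0.28), each alone (-0.31 frog, -0.018 fly) and without any 1 library (-1.02 to -0.87). miR-24-3p passed with RLE (-0.16) and turned positive with library size (0.33), the spike-ins (0.59), the frog one (0.55) and the fly one (0.87); it stayed negative and uncalled without any 1 library (-0.14 to -0.09). The cause of these changes was not tested. Ratios to miR-24-3p of miR-23a-5p and miR-27a-5p kept their calls under all 8 alternatives, and that of miR-27b-5p lost it with guide RNA as a replicate block (-0.84), without a filter (-0.83) and without any 1 library (-0.93 to -0.72). The block left the fold change calls of miR-23a-5p, miR-27a-5p, miR-27b-5p, miR-24-3p and miR-24-2-5p unchanged. The ratio calls of miR-23a-5p, miR-27a-5p and miR-24-2-5p were also unchanged with the block. Single calls of other miRNAs were not compared under the block. Leaving out a library moved miR-24-2-5p over -0.32 to 0.82 and its ratio over -0.18 to 0.91, the lowest of each without knockdown replicate 2. The number of all calls was 236 in the reported fit, 150 with DESeq2, 145 with the fly spike-in, 117 without knockdown replicate 1 and 140 without control replicate 2, and it split into 119 up and 117 down, against 273 and 41 with library size and 186 and 8 with the spike-ins. The crossed pairing gave 123 up and 118 down. Depth limits miR-27b-5p, miR-23c and the 5p arms of miR-24 and miR-23b, each with at most 28 reads in a library.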
